A study of Rattus norvegicus with 20 samples.

Results

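Rosiglitazone and resveratrol were set against each other in the whole blood of Zucker diabetic fatty (ZDF) rats, with 5 rats given rosiglitazone and 5 given resveratrol out of 20 rats with a blood array. The samples were chosen by their labels alone, and each array held the RNA of a single rat. The labels describe all as male ZDF rats of the Zucker strain, kept in individual cages. The other arrays came from 5 obese ZDF rats with no drug named and 5 lean control rats. The lean rats ate a standard Purina chow, and the obese rats had a stock diet for 6 weeks. The diet of the drug groups is not stated separately, so a match in diet with either reference group is not known. Age, and the dose, route and duration of both drugs, are not given in the sources used here, so the groups can be compared only as labelled and not at a matched dose or time. This gives 1 pair of compounds.

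These rats carry a faulty leptin receptor, overeat, and become obese, insulin resistant and, as males, diabetic. Rosiglitazone, a thiazolidinedione, is a ligand of PPARG, a nuclear receptor most abundant in fat cells that pairs with a retinoid X receptor and binds DNA at repeats of AGGTCA. Resveratrol, a plant stilbene, has no such receptor of its own. It is known for raising the activity of the deacetylase SIRT1 and the kinase AMPK, for acting on the NRF2 antioxidant response and for blocking the aryl hydrocarbon receptor. Whole blood holds red cells and reticulocytes, platelets, neutrophils, monocytes and lymphocytes. In such bulk RNA, fewer cells of a type and less of an RNA per cell cannot be told apart.

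The 10 arrays carried the marks of blood. Hbb-b1, a beta globin, averaged 11.32 on the log2 scale in rosiglitazone rats and 11.76 in resveratrol rats, and Pf4, a platelet chemokine, averaged 10.81 in rosiglitazone rats and 10.71 in resveratrol rats. Of the genes listed for other tissues, 5 of 27 liver genes and 8 of 24 skeletal muscle genes passed the filter on level, which is the median of all transcript clusters' means. Over the 8499 genes that passed, the correlation between arrays across genes had a median of 0.9496 within the rosiglitazone group, 0.9617 within the resveratrol group (10 pairs each) and 0.9558 between both (25 pairs). A pair of arrays stood apart from their own groups, namely rosiglitazone replicate 5 (mean correlation 0.9328) and resveratrol replicate 1 (0.9336), while the other 8 arrays were at 0.9456 or above. Of these 10 rats, rosiglitazone replicate 5 had the highest neutrophil list mean (6.87) and resveratrol replicate 1 the lowest monocyte list mean (4.42). Where leaving out either of these arrays ends or makes a call between the drugs, the value without it is given for the genes described below. The same is done where it moves a leading list by over 1.5 times. Without resveratrol replicate 1, Fbxo31, Liat1, Ndufaf4, Pdrg1 and Trim30d also passed, and they are not described further.

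Blood RNA of rosiglitazone and resveratrol rats differed in few single genes. Of 8499 genes, 4 passed an adjusted p of 0.05 in the comparison (limma, Benjamini-Hochberg), which is 0.0471% of the genes tested. Snrpgl2 and Prok2 were higher (2 genes, 0.0235%) and H2ac12 and RGD1565183 were lower (2 genes, 0.0235%) in rosiglitazone than in resveratrol rats. The difference was 1 or more on the log2 scale in 17 genes (0.2%), of which 13 were higher and 4 lower, and the median absolute difference of all genes was 0.15. The median SE of a difference was 0.189, and the median SD among rats was 0.314 in the rosiglitazone group and 0.297 in the resveratrol group (n = 5 each).

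**Figure D1:**
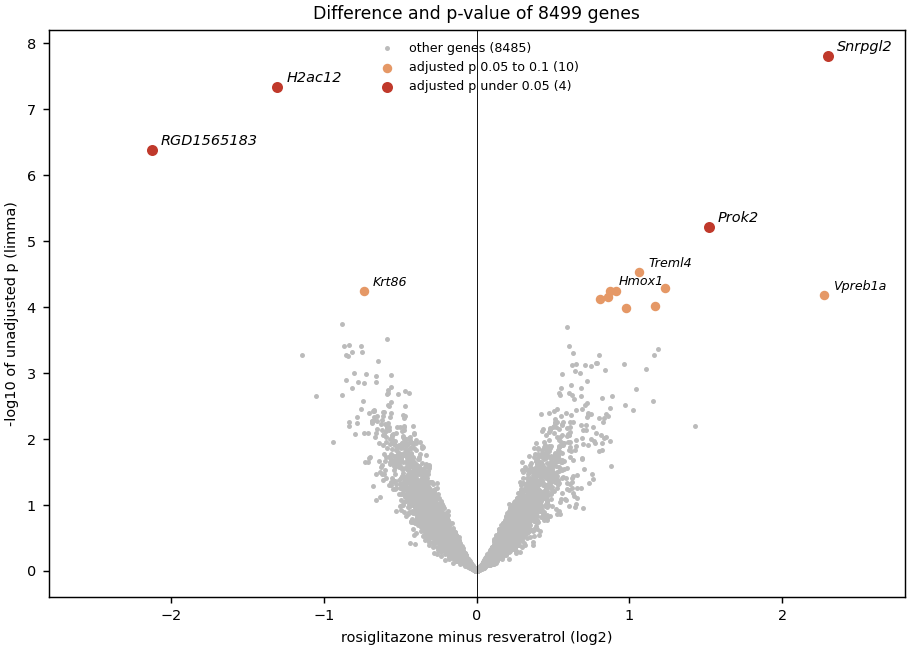
Each point is 1 of 8499 genes, with the log2 difference of rosiglitazone minus resveratrol on the x axis and the -log10 of the unadjusted limma p on the y axis. The 4 genes with an adjusted p under 0.05 lie above the bulk of the genes, and 10 more genes had an adjusted p of 0.05 to 0.1.

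The promoters of 3 of the 4 genes that passed are shown first (the RefSeq table used here has no entry for Snrpgl2), since the sequence next to a gene's start is where a receptor such as PPARG would be looked for. A histone gene and a platelet gene described below are printed with them. These 5 windows do not represent the named genes. The windows come from RefSeq on assembly GRCr8 and run 5′ to 3′ on the gene's strand over 300 bases, 250 before the start and 50 after it. Capitals mark exact matches, on either strand, to AGGTCA, to its direct repeat with a single base of any kind in between (known as DR1), whose match would hold the shorter motif too, or to AGATAA, a form of the site bound by GATA factors (TTATCT is the same site read on the other strand). The window of H2ac12 is chr17:47181943-47182242 (+), of Prok2 chr4:133917884-133918183 (-), of RGD1565183 chrX:156472959-156473258 (+), of Hist2h3c2 chr2:186525912-186526211 (+) and of Gp5 chr11:83948257-83948556 (+).
H2ac12: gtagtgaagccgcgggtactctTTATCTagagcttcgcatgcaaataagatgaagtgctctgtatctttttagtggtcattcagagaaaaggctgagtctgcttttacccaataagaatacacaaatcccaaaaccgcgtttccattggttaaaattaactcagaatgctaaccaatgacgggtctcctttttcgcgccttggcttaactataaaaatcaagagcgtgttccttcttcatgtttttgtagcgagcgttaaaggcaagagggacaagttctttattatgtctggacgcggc
Prok2: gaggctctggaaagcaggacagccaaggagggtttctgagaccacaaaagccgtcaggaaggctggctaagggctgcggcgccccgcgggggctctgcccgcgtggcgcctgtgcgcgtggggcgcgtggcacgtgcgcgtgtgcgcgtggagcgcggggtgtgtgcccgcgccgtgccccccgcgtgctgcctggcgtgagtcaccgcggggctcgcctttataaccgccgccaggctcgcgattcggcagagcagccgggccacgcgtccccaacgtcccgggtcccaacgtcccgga
RGD1565183: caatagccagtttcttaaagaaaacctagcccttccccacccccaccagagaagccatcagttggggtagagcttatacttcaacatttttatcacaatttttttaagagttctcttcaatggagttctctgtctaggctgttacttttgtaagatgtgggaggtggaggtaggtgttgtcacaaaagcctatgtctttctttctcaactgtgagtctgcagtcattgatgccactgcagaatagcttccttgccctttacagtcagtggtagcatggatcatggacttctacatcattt
Hist2h3c2: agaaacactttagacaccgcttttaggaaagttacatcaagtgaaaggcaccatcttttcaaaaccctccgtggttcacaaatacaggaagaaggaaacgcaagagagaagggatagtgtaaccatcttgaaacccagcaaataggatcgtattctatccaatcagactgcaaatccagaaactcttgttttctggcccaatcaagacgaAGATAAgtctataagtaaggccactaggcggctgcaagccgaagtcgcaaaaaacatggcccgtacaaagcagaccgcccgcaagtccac
Gp5: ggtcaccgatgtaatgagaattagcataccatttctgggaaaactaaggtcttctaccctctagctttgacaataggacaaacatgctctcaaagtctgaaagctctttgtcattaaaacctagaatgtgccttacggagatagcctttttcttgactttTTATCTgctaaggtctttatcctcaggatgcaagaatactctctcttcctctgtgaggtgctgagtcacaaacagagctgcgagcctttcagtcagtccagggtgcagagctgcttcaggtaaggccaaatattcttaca
No window of these 5 held AGGTCA. The histone genes H2ac12 and Hist2h3c2 each held AGATAA once, as did Gp5, whereas Prok2 and RGD1565183 had none of the 3 motifs. Of 13 platelet genes with a window, 2 held AGATAA. Of 27457 RefSeq windows, 15.7% held AGGTCA, 11.3% held AGATAA and 0.0583% held the repeat, and of the 7003 tested genes with a window 12.4%, 6.68% and 0.0286% did. Among the 65 of 82 named genes with a window, 10 held AGGTCA, 7 held AGATAA and 0 held the repeat. No test was made of these shares.

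Snrpgl2, named for its likeness to Snrpg, a core protein of the splicing particles, gave the smallest p. Its log2 levels were 5.75, 5.72, 6.00, 5.95 and 4.84 in the rosiglitazone rats, against 4.32, 3.32, 3.03, 3.82 and 2.30 in the resveratrol rats. Every rosiglitazone rat lay above every resveratrol rat. The difference was 2.30 ± 0.28 (SE, adjusted p = 0.000132), or 4.91-fold. In obese ZDF rats the gene averaged 3.61 ± 0.37 and in lean rats 5.38 ± 0.27 (SD, n = 5 each), so the rosiglitazone rats were nearer to the lean rats and the resveratrol rats nearer to the obese ones. Snrpg has near-identical copies in mammalian genomes, and probes of the array may read more than a single copy.

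H2ac12, which encodes a histone of the H2A class, passed with little spread among the rosiglitazone rats. Its levels were 5.01, 5.40, 5.27, 5.53 and 5.45 in rosiglitazone rats, against 6.68, 6.80, 7.14, 6.31 and 6.25 in resveratrol rats. Every rosiglitazone rat lay below every resveratrol rat. H2ac12 fell to 5.33 ± 0.20 in rosiglitazone rats, against 6.64 ± 0.36 in resveratrol rats (SD, n = 5 each), a difference of -1.30 ± 0.17 (SE, adjusted p = 0.000195). Obese ZDF rats averaged 6.42 and lean rats 5.24, again with rosiglitazone beside lean and resveratrol beside obese. Histone genes resemble each other closely, so the value may be shared with other H2A genes.

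RGD1565183, a protein-coding gene on chromosome X that carries only a locus name, had levels of 2.08, 2.70, 1.66, 2.64 and 2.55 in rosiglitazone rats and of 5.82, 3.87, 4.89, 3.94 and 3.73 in resveratrol rats. The groups did not overlap, and the resveratrol rats were the more scattered. It fell by 2.12 ± 0.31 on the log2 scale (SE, adjusted p = 0.00117) in rosiglitazone relative to resveratrol rats. Its mean was 3.94 in obese ZDF rats and 1.83 in lean rats. The rosiglitazone mean lay under 2.64, the value used as the filter on a gene's mean over all arrays, so no fold is given, and the gene was not tested with the filter at the 75th percentile. It falls outside the rule for named genes and is given because only 4 genes passed.

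Prok2 encodes prokineticin 2, a small secreted protein made by neutrophils and other myeloid cells. It stood at 6.54, 5.67, 7.07, 6.62 and 6.42 in the rosiglitazone rats, against 4.51, 5.56, 4.86, 4.92 and 4.87 in the resveratrol rats. The lowest rosiglitazone rat was just above the highest resveratrol rat. The difference was 1.52 ± 0.27 (SE, adjusted p = 0.0130), or 2.87-fold. Obese ZDF rats (5.86) and lean rats (5.82) lay near the middle of the gap between the drug groups, away from either. This call was lost without rosiglitazone replicate 1 (adjusted p = 0.0527), without both arrays that stand apart (0.0695), and with the red cell list mean (0.0502) or the neutrophil minus T cell list mean (0.0666) as a covariate. The differences in these fits stayed at 1.37 or above.

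**Figure D2:**
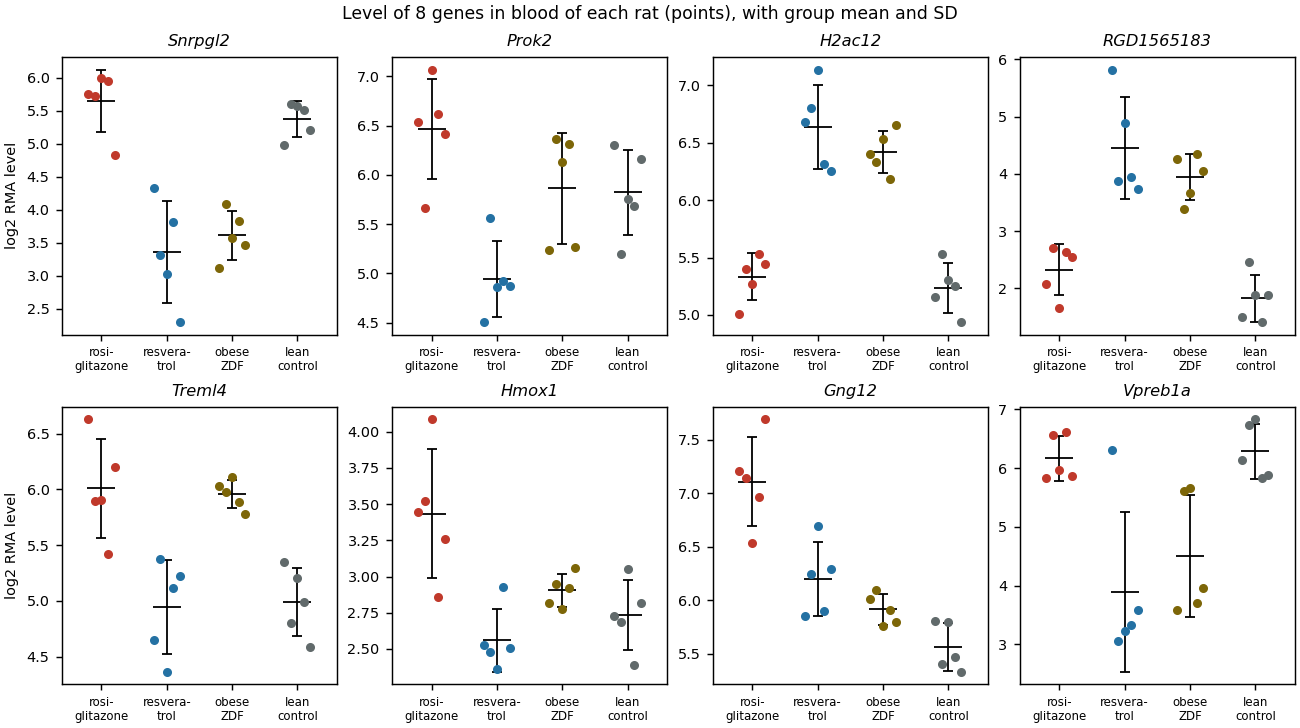
Log2 level of 8 genes in each rat (points) by group, with the group mean and SD as bars, n = 5 rats. For Snrpgl2, H2ac12 and RGD1565183 the rosiglitazone rats lie beside the lean controls and the resveratrol rats beside the obese ZDF rats, while for Vpreb1a resveratrol replicate 1, at 6.31, lies apart from the other resveratrol rats.

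A further 10 genes had an adjusted p between 0.05 and 0.1, of which 9 were higher and 1 lower in rosiglitazone rats, and 14 genes in all had one under 0.1 (0.165% of the genes tested). Treml4, a receptor of myeloid cells in the TREM family, had levels of 6.63, 5.90, 5.90, 5.42 and 6.20 in rosiglitazone rats and 4.65, 5.38, 4.37, 5.11 and 5.23 in resveratrol rats, with no overlap. Its difference was 1.06 ± 0.21 (SE, adjusted p = 0.0505), and the obese ZDF rats (5.96) were level with the rosiglitazone rats. Pilrb1l1, a paired immunoglobulin-like receptor gene of the same kind of cell, differed by 1.23 ± 0.25 (adjusted p = 0.0534). Its obese ZDF mean of 6.32 was likewise close to the 6.43 of rosiglitazone rats and above the 5.20 of resveratrol rats. Among the 20 fits that left out 1 array of any group, Treml4 passed in 5 (adjusted p of 0.00662 to 0.154), namely without rosiglitazone replicate 4, resveratrol replicate 2, resveratrol replicate 5, lean replicate 1 or lean replicate 5, and Pilrb1l1 in 2, without rosiglitazone replicate 4 or resveratrol replicate 2 (0.00662 to 0.180).

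Gng12, the gamma subunit of a G protein, showed another order of groups. It was at 7.21, 7.14, 6.54, 6.96 and 7.69 in rosiglitazone rats, against 5.86, 6.24, 6.70, 5.90 and 6.29 in resveratrol rats. A single resveratrol rat exceeded the lowest rosiglitazone rat. The difference was 0.91 ± 0.19 (SE, adjusted p = 0.0534), with obese ZDF rats at 5.92 and lean rats at 5.56, below both drug groups. Gng12 passed without rosiglitazone replicate 3 and without resveratrol replicate 3 (adjusted p of 0.0139 to 0.182 over the 20 fits).

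Vpreb1a, part of the surrogate light chain of immature B cells, had the second largest difference of all genes, 2.27 ± 0.47, yet did not pass (SE, adjusted p = 0.0534). The rosiglitazone rats were at 5.83, 6.56, 5.98, 6.61 and 5.87, and the resveratrol rats at 6.31, 3.05, 3.22, 3.32 and 3.59. Resveratrol replicate 1 sat among the rosiglitazone rats and the other 4 far below them. Without that array the difference was 2.87 and Vpreb1a passed (adjusted p = 0.000133), as it did without both arrays that stand apart and with array weights, while in the other fits that left out 1 array it did not (adjusted p up to 0.182). In obese ZDF rats the gene ran between 3.58 and 5.66. Zfyve9, which anchors SMAD proteins in TGF-beta signalling, differed by 0.81 ± 0.17, Car5b, a mitochondrial carbonic anhydrase, by 1.17 ± 0.25, and Chst7, a chondroitin sulfotransferase, by 0.98 ± 0.21 (SE, adjusted p of 0.0534 to 0.0631). Zfyve9 passed without rosiglitazone replicate 3, resveratrol replicate 4 or resveratrol replicate 5, Car5b without rosiglitazone replicate 4 or resveratrol replicate 5, and Chst7 without resveratrol replicate 1 (lowest adjusted p of 0.0336, 0.0240 and 0.0297).

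Of the 10 genes lower in rosiglitazone rats by the smallest p, with locus names such as RGD1565183 left out, H2ac12 alone passed. Krt86, a hair keratin gene, was at 2.98, 2.84, 3.01, 2.99 and 3.08 in rosiglitazone rats and at 3.96, 3.62, 3.62, 3.65 and 3.71 in resveratrol rats, a difference of -0.74 ± 0.15 (SE, adjusted p = 0.0534). Hist2h3c2, an H3 histone gene, had 8.48, 8.37, 8.27, 8.74 and 8.34 in rosiglitazone rats and 9.04, 9.07, 9.21, 8.92 and 8.88 in resveratrol rats. Like H2ac12, it did not overlap between groups, and its difference of -0.58 ± 0.14 did not pass (SE, adjusted p = 0.150).

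The other genes of this group ranged from -0.75 to -0.88 in difference, with adjusted p of 0.103 to 0.158. They were Eid1, an inhibitor of the EP300 acetyltransferase, Ppp1r1a, an inhibitor of protein phosphatase 1, Pltp, the phospholipid transfer protein of plasma lipoproteins, Mt1f, a metallothionein, Ccl22, a chemokine, Selenbp1, a selenium-binding protein abundant in red cells, and Uqcc2, an assembly factor of respiratory complex III, which passed without rosiglitazone replicate 3 (adjusted p = 0.0139). Selenbp1 was at 8.68, 8.63, 8.86, 8.79 and 7.54 in rosiglitazone rats and at 9.58, 9.13, 9.19, 9.27 and 9.08 in resveratrol rats. All rosiglitazone rats were below all resveratrol rats, with replicate 5 the lowest by far.

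Over all genes, 369 were higher (4.34%) and 396 lower (4.66%) in rosiglitazone rats at an unadjusted p under 0.05, and the groups did not overlap in 54 genes that were higher (0.635%) and 48 that were lower (0.565%). The 31 gene lists are set beside these shares, because none of their members passed the adjusted threshold. Members of a list were measured in the same 10 rats and are not independent of each other. The median difference over all genes was -0.011.

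No tested gene of rosiglitazone's own pathway passed between the drugs. Pparg had no transcript cluster under its name alone, and Ppara, its relative in fatty acid oxidation, averaged 2.52 in rosiglitazone rats and 2.18 in resveratrol rats, under the filter. Cd36, a fatty acid transporter and PPARG target, was at 9.85, 9.77, 9.60, 9.69 and 9.86 in rosiglitazone rats and at 9.67, 9.63, 9.81, 9.43 and 9.66 in resveratrol rats. These groups overlapped, and the difference of 0.12 had a 95% confidence interval from -0.16 to 0.39. Plin2, which coats lipid droplets, differed by 0.19 (-0.25 to 0.63), Ppard by -0.22 (-0.55 to 0.11) and the partner receptor Rxra by -0.22 (-0.82 to 0.38). Pdk4, Angptl4 and Abca1, targets of PPAR or LXR, were under the filter, with differences of -0.17, 0.12 and -0.27 in a fit of all named genes.

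Of 33 PPAR targets and lipid droplet genes tested, 3 were higher and 3 lower at an unadjusted p under 0.05, with a median of 0.06. Among all genes, 4.34% were higher and 4.66% lower at that p. The higher members were Olr1, a receptor of oxidised LDL (0.82 ± 0.30), Retn, which encodes resistin (0.65 ± 0.24), and Creb3l3 (0.51 ± 0.17). The lower members, Me1 (-0.62 ± 0.21), Slc25a20 (-0.60 ± 0.20) and Cpt1a (-0.45 ± 0.18, SE in each case), make NADPH, carry acylcarnitines into mitochondria and load fatty acids onto carnitine. None of these passed (adjusted p of 0.365 to 0.466). In RefSeq, 8 of 27 members with a window held AGGTCA, beside 12.4% of the 7003 tested genes with a window. Such shares varied among the lists and were not tested. They were 16 of 49 for the respiratory chain, 7 of 23 for fatty acid oxidation and 2 of 30 for the proteasome.

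Cpt1a and Slc25a20 also stand on the list of fatty acid oxidation. Cpt1a was at 4.45, 4.40, 4.90, 4.24 and 4.42 in rosiglitazone rats, against 4.60, 5.16, 4.79, 4.74 and 5.34 in resveratrol rats, with obese ZDF rats at 5.04. The levels overlapped in rosiglitazone replicate 3 only, and the difference was -0.45 (95% confidence interval -0.82 to -0.07). Slc25a20 was at 5.47, 5.45, 5.39, 5.37 and 4.99 in rosiglitazone rats and at 6.26, 6.04, 6.39, 5.63 and 5.34 in resveratrol rats. Over the 27 oxidation genes 0 were higher and 3 lower at an unadjusted p under 0.05, the third being Ech1 (-0.43 ± 0.17), and the median was 0.03. Without rosiglitazone replicate 4 the lower count was 1, and without rosiglitazone replicate 1 the median was -0.039.

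Slc2a4, the insulin-regulated glucose transporter of muscle and fat, was low in both drug groups. Its levels were 1.82, 2.91, 2.46, 2.47 and 2.02 in rosiglitazone rats, against 3.51, 2.92, 3.23, 3.19 and 2.69 in resveratrol rats. The groups overlapped in resveratrol replicate 5, and the difference was -0.77 ± 0.21 (SE, unadjusted p = 0.00138, adjusted p = 0.230). Of 29 insulin signalling genes, 2 were higher and 2 lower at an unadjusted p under 0.05. Apart from Slc2a4, these were Inppl1, a lipid phosphatase (-0.42), Pik3r2, a regulatory subunit of PI3 kinase (0.40), and Igf1r, the receptor of IGF1 (0.38). Slc2a1, the glucose transporter of red cells and most other cells, differed the opposite way from Slc2a4, by 0.43 ± 0.19 (SE, adjusted p = 0.496).

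Among the genes tied to resveratrol, Sirt1 had no transcript cluster under its name alone. Prkaa1, a catalytic subunit of AMPK, differed by 0.15 (95% confidence interval -0.12 to 0.42) and Ahr, the aryl hydrocarbon receptor, by -0.16 (-0.63 to 0.31). Of 13 genes of sirtuins, AMPK and NAD metabolism, 0 were higher and 0 lower at an unadjusted p under 0.05, and the same held for 4 genes of the aryl hydrocarbon receptor pathway and 12 of the PPAR, RXR and LXR receptors and their cofactors.

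Several antioxidant genes, part of the NRF2 response, were at higher levels in rosiglitazone than in resveratrol rats, though none passed the test. Hmox1, which breaks down haem, was at 3.45, 3.52, 4.08, 2.86 and 3.26 in rosiglitazone rats, against 2.53, 2.48, 2.36, 2.93 and 2.51 in resveratrol rats. A single rat of each group crossed over. The resveratrol mean, 2.56, lay under 2.64, the value used as the filter. The difference was 0.87 ± 0.18 (SE, adjusted p = 0.0534), with obese ZDF rats at 2.90 and lean rats at 2.73, between the drug groups. Hmox1 passed without rosiglitazone replicate 4 and without resveratrol replicate 4 (adjusted p of 0.00662 to 0.156 over the 20 fits). Txnrd1, the cytosolic thioredoxin reductase, was at 5.35, 4.70, 5.30, 4.71 and 5.39 in rosiglitazone rats and at 4.59, 4.36, 4.0, 4.24 and 4.65 in resveratrol rats, with no overlap (0.72 ± 0.22, adjusted p = 0.304).

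Gsto1, a glutathione transferase, Sod1, the cytosolic superoxide dismutase, and Txn1, thioredoxin itself, differed by 0.54, 0.44 and 0.30, and Gpx3, a glutathione peroxidase of plasma, by -0.40. In all, 5 of 23 members (21.7%) were higher and 1 lower at an unadjusted p under 0.05. The median of the list was -0.03, and 13 of its members were below 0. The higher count was 9 without rosiglitazone replicate 4 and 4 to 6 without any other array, and the median was 0.062 without rosiglitazone replicate 5 and 0.016 without resveratrol replicate 1. Nqo1 differed by 0.37 (95% confidence interval -0.04 to 0.78), and Nfe2l2, the gene of NRF2, by 0.45 (-0.004 to 0.91), with resveratrol replicate 1 far below the rest of its group at 4.97.

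**Figure D3:**
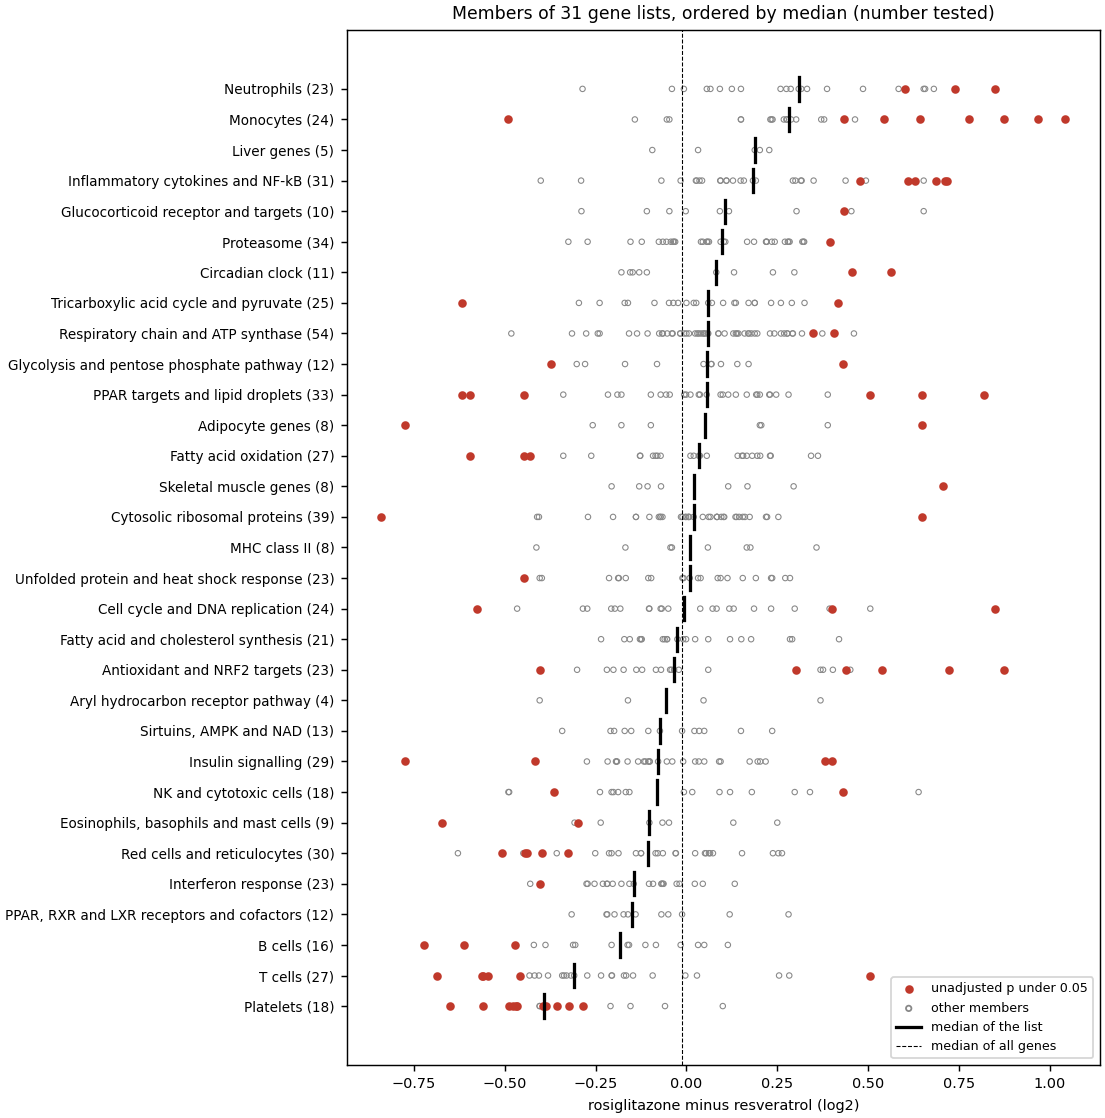
Log2 difference of rosiglitazone minus resveratrol for every tested member (points) of 31 gene lists, with the list median as a bar and the median of all genes, -0.011, as a dashed line. Filled points had an unadjusted p under 0.05 and none passed the adjusted threshold. Platelet genes, at the foot, had the lowest median (-0.39) and neutrophil and monocyte genes the highest (0.31 and 0.28).

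Platelet genes had the lowest median of the lists. Of 18 tested, 17 were lower in rosiglitazone rats, 11 of them (61.1%) at an unadjusted p under 0.05 beside 4.66% of all genes, and 0 were higher at that p. The median was -0.39. Treml1, a receptor stored in platelet granules, was at 6.39, 6.91, 6.99, 6.61 and 6.5 in rosiglitazone rats, against 7.32, 7.36, 7.21, 7.33 and 6.97 in resveratrol rats. Rosiglitazone replicate 3 and resveratrol replicate 5 met at the border, and the difference was -0.56 ± 0.15 (SE, unadjusted p = 0.00107, adjusted p = 0.198).

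Gp5, a subunit of the receptor for von Willebrand factor, was at 7.06, 7.46, 7.54, 7.40 and 7.01 in rosiglitazone rats and at 7.5, 7.88, 7.91, 7.99 and 7.53 in resveratrol rats. Only rosiglitazone replicate 3 reached the range of resveratrol rats. Other subunits of that receptor had like differences, Gp1ba with -0.47 ± 0.18 and Gp9 with -0.40 ± 0.15, as did its ligand Vwf with -0.48 ± 0.16. P2ry12, the ADP receptor that antiplatelet drugs block, differed by -0.49 ± 0.18 and Itgb3, a chain of the fibrinogen receptor, by -0.36 ± 0.13 (SE in each case). Rab27b, needed for granule release, was at 6.86, 6.63, 6.90, 7.0 and 5.73 in rosiglitazone rats and at 7.04, 7.14, 7.46, 7.46 and 7.26 in resveratrol rats. It was the member of the list without overlap, with a difference of -0.65 ± 0.22 (adjusted p = 0.370).

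Pf4 was the exception. The most abundant transcript of the list was at 10.73, 10.91, 10.88, 10.94 and 10.60 in rosiglitazone rats and at 10.85, 10.69, 10.61, 10.93 and 10.47 in resveratrol rats. Their ranges overlapped (0.10 ± 0.13, SE). Ppbp, the other abundant chemokine of platelet granules, differed by -0.40 ± 0.21 and did not reach an unadjusted p of 0.05 (0.0692).

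The mean of the platelet list per rat was 7.05 to 7.64 in rosiglitazone rats, against 7.61 to 7.95 in resveratrol rats, 7.39 to 7.70 in obese ZDF rats and 7.73 to 8.09 in lean rats. Rosiglitazone replicates 1 and 5 had the lowest means. Against obese ZDF rats, which both comparisons share, the median member differed by -0.18 in rosiglitazone rats and by 0.08 in resveratrol rats. The number of members lower at an unadjusted p under 0.05 was 6 without rosiglitazone replicate 1, 7 without resveratrol replicate 4, 8 without both arrays that stand apart and 5 with the neutrophil minus T cell mean as a covariate, with medians of -0.33 and -0.31 in the last pair of fits.

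**Figure D4:**
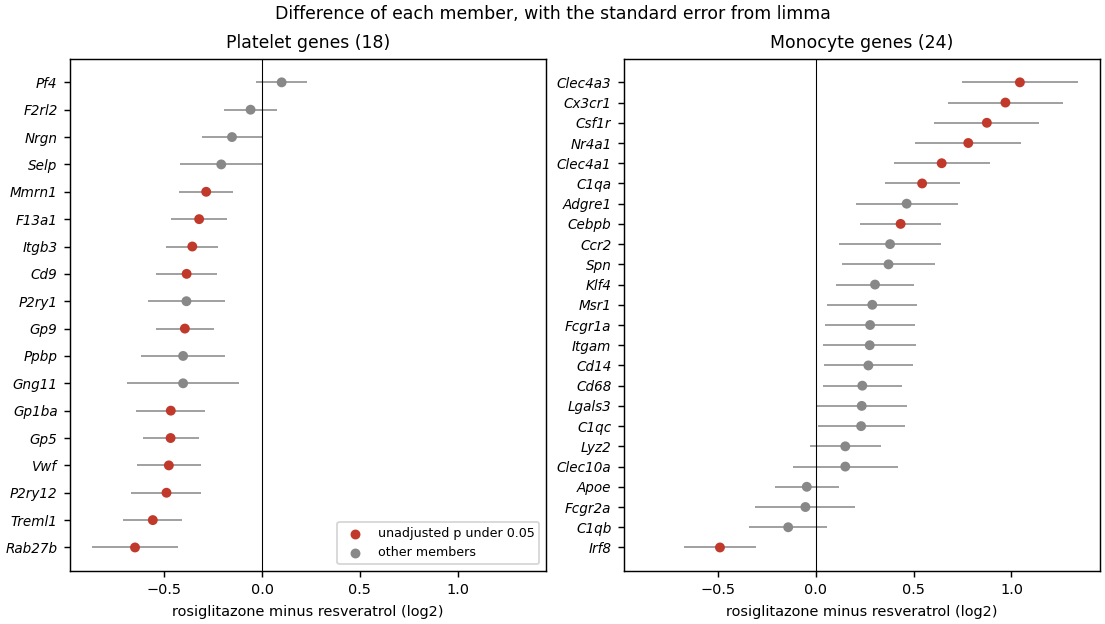
Log2 difference of rosiglitazone minus resveratrol (points) with its SE (lines) for 18 platelet and 24 monocyte genes, sorted by difference, filled red at an unadjusted p under 0.05. All platelet genes but Pf4 lie below 0, and 20 of 24 monocyte genes lie above it, with Irf8 the furthest below.

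Monocyte genes lay on the other side. Of 24 tested, 20 were higher in rosiglitazone rats, 7 of them (29.2%) at an unadjusted p under 0.05 beside 4.34% of all genes, and 1 was lower at that p. The median was 0.28. Cx3cr1, the fractalkine receptor that marks patrolling monocytes in mice, was at 7.14, 6.53, 6.11, 5.32 and 6.5 in rosiglitazone rats, against 3.98, 5.86, 5.25, 5.66 and 6.02 in resveratrol rats. The groups overlapped, with rosiglitazone replicate 4 low and resveratrol replicate 1 the lowest of all (0.97 ± 0.29, adjusted p = 0.323).

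Csf1r, the receptor through which monocytes survive, was at 7.83, 7.28, 6.89, 6.30 and 7.0 in rosiglitazone rats and at 5.05, 6.87, 6.42, 6.37 and 6.21 in resveratrol rats. It showed the same pair of low rats (0.87 ± 0.27, adjusted p = 0.338). Clec4a3, a C-type lectin receptor, differed by 1.04 ± 0.30, Nr4a1, the nuclear receptor that patrolling monocytes need in mice, by 0.78 ± 0.27, and C1qa, a chain of complement C1q, by 0.54 ± 0.19 (SE in each case). C1qa was at 3.79, 4.16, 3.50, 4.01 and 3.62 in rosiglitazone rats and at 3.38, 3.38, 3.39, 2.89 and 3.32 in resveratrol rats, the member of the list without overlap. The other C1q chains on the list, at similarly low levels, overlapped between the groups. C1qb differed by -0.14 ± 0.20 and C1qc by 0.23 ± 0.22 (SE in each case).

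Irf8, a transcription factor that monocytes share with dendritic and B cells, went the other way, with 4.72, 4.91, 5.00, 4.22 and 4.65 in rosiglitazone rats and 4.64, 5.50, 5.23, 5.50 and 5.08 in resveratrol rats. Cd14, another monocyte marker, overlapped between the groups (0.27 ± 0.23, SE). For Cx3cr1, Csf1r and Clec4a3 it was the resveratrol group that stood off from the obese ZDF rats, by -1.05, -0.72 and -1.0, whereas the rosiglitazone group was at -0.08, 0.15 and 0.05 from the same rats. None of these passed (adjusted p of 0.368 and above). Clec4a3 passed between the drugs without rosiglitazone replicate 4 (adjusted p = 0.0387), when 11 members of the list were higher at an unadjusted p under 0.05 and the median was 0.45. The median was 0.16 without resveratrol replicate 1 and 0.10 without both arrays that stand apart, when 6 members were higher and 1 lower at an unadjusted p under 0.05.

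Inflammatory and NF-kB genes, many of which monocytes and neutrophils express, were also on the higher side in rosiglitazone rats. Of 31 tested, 27 were higher, 6 (19.4%) at an unadjusted p under 0.05 and 0 lower at that p, with a median of 0.18. Ccl2, the chemokine that draws monocytes, was at 4.95, 4.42, 3.63, 4.44 and 4.56 in rosiglitazone rats and at 4.10, 4.07, 3.13, 3.70 and 3.44 in resveratrol rats. The groups overlapped in a single rosiglitazone rat, replicate 3 (0.71 ± 0.22, adjusted p = 0.323). Nfkbia, the inhibitor that NF-kB itself induces, was at 7.25, 6.92, 6.31, 5.45 and 6.23 in rosiglitazone rats and at 5.30, 6.09, 5.65, 5.75 and 5.79 in resveratrol rats. The higher count was 3 without resveratrol replicate 1, 10 without rosiglitazone replicate 4, 12 without resveratrol replicate 4 and 4 without both arrays that stand apart, with a median of 0.10 in the last.

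Nfkb2 (0.69 ± 0.28), Nos2, the inducible nitric oxide synthase (0.63 ± 0.28), Tlr2, a receptor of bacterial lipopeptides (0.61 ± 0.24), and Irak3, a brake on that receptor's signalling (0.48 ± 0.21, SE in each case), made up the rest of the 6. The best-known cytokines differed little, Il1b by 0.03 ± 0.25 and Tnf by 0.29 ± 0.19. Interferon response genes leaned the other way, with 20 of 23 lower in rosiglitazone rats and a median of -0.15, but only Trim25, a ubiquitin ligase, had an unadjusted p under 0.05 (-0.40 ± 0.18). That median ran from -0.226 to -0.031 with an array left out, and was -0.036 without rosiglitazone replicate 5 and -0.221 without resveratrol replicate 1.

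The neutrophil list had the highest median, 0.31, with 3 of 23 members higher at an unadjusted p under 0.05 (13%) and 0 lower. The median was 0.008 without rosiglitazone replicate 5 and -0.052 without both arrays that stand apart. The higher count was 7 or 8 without rosiglitazone replicate 2, rosiglitazone replicate 4 or resveratrol replicate 4, 5 without resveratrol replicate 5 and 0 without both arrays that stand apart, and the median was 0.16 without resveratrol replicate 2 and 0.49 without rosiglitazone replicate 2. The list mean per rat was 5.92, 5.35, 6.31, 5.40 and 6.87 in rosiglitazone rats, against 5.24, 5.28, 5.66, 6.04 and 5.99 in resveratrol rats, which overlapped. Ceacam1, an adhesion receptor (0.85 ± 0.30), Pglyrp1, a granule protein that binds peptidoglycan (0.74 ± 0.35), and Cyba, a subunit of the NADPH oxidase (0.60 ± 0.23), were the 3 members, none past the test (adjusted p of 0.396 to 0.544).

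**Figure D5:**
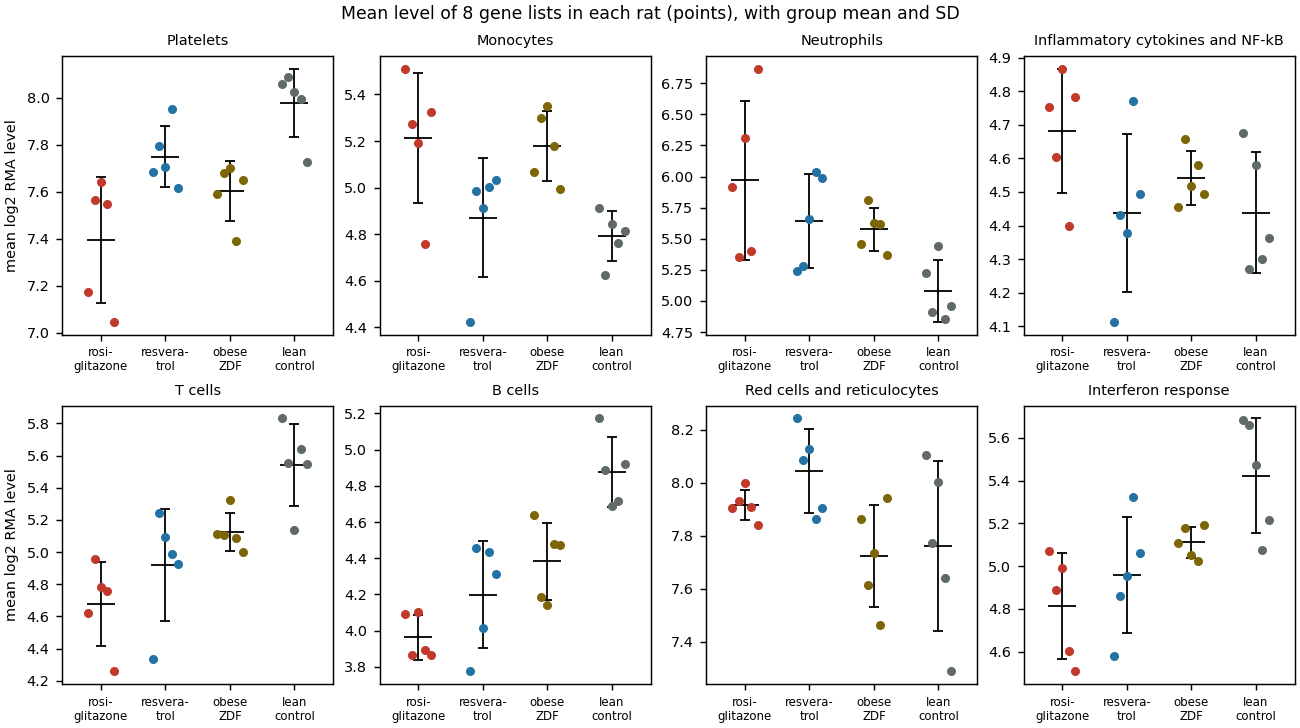
Mean log2 level of 8 gene lists in each rat (points) by group, with the group mean and SD as bars, n = 5 rats. Platelet list means were 7.05 to 7.64 in rosiglitazone rats and 7.61 to 7.95 in resveratrol rats, and the single high neutrophil value, 6.87, is rosiglitazone replicate 5.

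Most T and B cell genes had lower means in rosiglitazone rats, and none passed. Of 27 T cell genes, 23 were lower, 5 (18.5%) at an unadjusted p under 0.05, with a median of -0.31. The lower count depended on single rats. It was 11 without resveratrol replicate 1 and 8 without rosiglitazone replicate 2, against 3 without rosiglitazone replicate 5, resveratrol replicate 3 or resveratrol replicate 4 and 2 without resveratrol replicate 2, and 7 without both arrays that stand apart. The median was -0.155 without rosiglitazone replicate 5 and -0.361 without resveratrol replicate 1. Ubash3a, which restrains T cell receptor signalling, was at 2.82, 3.0, 2.65, 2.46 and 3.22 in rosiglitazone rats and at 3.29, 4.14, 3.47, 3.35 and 3.34 in resveratrol rats, with no overlap (-0.69 ± 0.23, adjusted p = 0.361). Tcf7 and Gata3, transcription factors of T cells, Lck, the kinase of the T cell receptor, and Cd28, its co-receptor, differed by -0.55, -0.56, -0.56 and -0.46. Cd4, which rat monocytes also express, was among the members on the higher side (0.51 ± 0.23).

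B cell genes had a median of -0.18, with 13 of 16 lower and 3 (18.8%) at an unadjusted p under 0.05. The lower count was 5 without resveratrol replicate 1, without resveratrol replicate 3 and without both arrays that stand apart, and 2 to 4 without any other array, and the median was -0.357 without resveratrol replicate 1 and -0.085 without resveratrol replicate 4. Pax5, the factor that keeps B cell identity, was at 4.24, 3.32, 3.57, 3.95 and 3.16 in rosiglitazone rats and at 4.70, 4.56, 4.17, 4.22 and 4.22 in resveratrol rats, overlapping in rosiglitazone replicate 1 (-0.72 ± 0.20, adjusted p = 0.195). Tnfrsf13c, the receptor of the survival factor BAFF, did not overlap (-0.61 ± 0.23), and Fcer2, a low-affinity IgE receptor, differed by -0.47 ± 0.21 (SE in each case). Against obese ZDF rats the median members were at -0.49 for T cells and -0.40 for B cells in rosiglitazone rats, and at -0.15 and -0.13 in resveratrol rats. Genes of NK and cytotoxic cells (1 of 18 higher, 1 lower, median -0.08, but 4 lower without resveratrol replicate 1, 3 higher without resveratrol replicate 4 and a median of 0.036 without rosiglitazone replicate 5) and of MHC class II (0 of 8 in either direction, median 0.01) had few members at that p.

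Globin genes had lower means in rosiglitazone rats, and none passed in the main fit. Hbb-b1 was at 11.32, 11.38, 11.11, 11.40 and 11.37 in rosiglitazone rats, against 11.77, 11.76, 11.77, 11.79 and 11.71 in resveratrol rats, with no overlap and little spread (-0.44 ± 0.13, adjusted p = 0.263). It passed with a trended robust prior in limma (adjusted p = 0.00479), the only setting run that called it. Hba-a3 was at 11.58, 11.58, 11.37, 11.95 and 12.05 in rosiglitazone rats and at 12.13, 12.08, 12.01, 12.16 and 12.13 in resveratrol rats, and Hba-a1 differed by -0.44 ± 0.18. These values are near the top of the scale, where an array loses proportion, and globin genes are near-identical copies that may share probes. Of 30 genes of red cells and reticulocytes, 0 were higher and 5 (16.7%) lower at an unadjusted p under 0.05, with a median of -0.10. The lower count was 3 without rosiglitazone replicate 5, 2 without resveratrol replicate 2 and 3 without both arrays that stand apart, and the median ran from -0.165 to -0.039 with an array left out, that nearest 0 without resveratrol replicate 1. Trim58, a ubiquitin ligase of maturing red cells (-0.51 ± 0.24), and Nfe2, a transcription factor of red cells and platelets (-0.33 ± 0.15), were the other members.

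Energy and growth lists stayed close to all genes. The respiratory chain had 2 of 54 members higher and 0 lower at an unadjusted p under 0.05 (median 0.06), with Atp5f1d, a subunit of ATP synthase, at 0.41 ± 0.17 and Ndufb8, of complex I, at 0.35 ± 0.17. The tricarboxylic acid cycle had 1 of 25 higher, Pdha1 of pyruvate dehydrogenase (0.42 ± 0.19), and 1 lower, Me1, and glycolysis 1 of 12 higher, Slc2a1, and 1 lower, Pkm, a pyruvate kinase (-0.37 ± 0.16). Cytosolic ribosomal proteins had 1 of 39 in each direction, Rpl37a (0.65 ± 0.20) and Rps6 (-0.84 ± 0.21, SE in each case), both at low levels and from families with many near-identical copies.

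The cell cycle list had 2 of 24 higher and 1 lower. Rrm2, a subunit of ribonucleotide reductase, was at 5.53, 5.02, 5.09, 4.28 and 5.26 in rosiglitazone rats and at 2.98, 4.33, 4.47, 4.33 and 4.82 in resveratrol rats, with the lowest value in resveratrol replicate 1 (0.85 ± 0.27, adjusted p = 0.343). Ccna2 (0.40 ± 0.16) and Cdk1 (-0.58 ± 0.28), the partners that drive the cycle, differed in opposite directions. The proteasome had 1 of 34 higher, Psmb3 (0.40), the circadian clock 2 of 11, Clock (0.46) and Bhlhe40 (0.56), the glucocorticoid list 1 of 10, Cebpb (0.43), and skeletal muscle genes 1 of 8, Eno3 (0.70). Eosinophil, basophil and mast cell genes had 2 of 9 lower, Siglec5 (-0.67) and Kit (-0.30), the unfolded protein response 1 of 23, Dnajb9 (-0.45), and fat cell genes 1 of 8 in each direction, Retn and Slc2a4. Klrb1a (-0.36) and Ncr3 (0.43) were those of NK cells, and fatty acid and cholesterol synthesis (21 genes) and liver genes (5) had 0 in either direction.

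Set against the obese ZDF rats, the drug groups differed in how many genes passed. In rosiglitazone rats 14 of 8499 genes (0.165%) passed an adjusted p of 0.05, 10 higher (0.118%) and 4 lower (0.0471%), and in resveratrol rats 0 did. At an unadjusted p under 0.05 these comparisons gave 1032 (12.1%) and 873 genes (10.3%). Both use the same 5 obese rats, so their values are given side by side and their overlap was not counted as evidence. Of the 14 genes, 3 also passed between the drugs, namely Snrpgl2, H2ac12 and RGD1565183.

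Gng12, at 1.19 ± 0.19 above obese ZDF rats in rosiglitazone rats (adjusted p = 0.00356), was at 0.28 in resveratrol rats. Bckdk, the kinase that shuts off branched-chain amino acid breakdown, stood at 5.73, 6.13, 5.79, 5.49 and 5.61 in rosiglitazone rats and at 4.76, 4.91, 5.59, 4.66 and 5.06 in resveratrol rats, against a mean of 4.72 in obese ZDF rats. Its difference between the drugs was 0.75 ± 0.20 (SE, adjusted p = 0.172). Mast2, a kinase (0.97 from obese ZDF rats in rosiglitazone rats and 0.41 in resveratrol rats), Urah, an enzyme of urate breakdown (0.82 and 0.48), Amn1 (1.36 and 0.55) and Gstm5, a glutathione transferase (1.31 and 0.54), had resveratrol means between those of rosiglitazone and obese ZDF rats. So did 11 of the 14 genes in all. These 14 were picked because rosiglitazone and obese ZDF rats differed in them, which by itself favours a resveratrol mean in between. The same count was not made over all genes, so no weaker effect of resveratrol is read from these 11.

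Mybl2, a cell cycle transcription factor, and Klrk1, an activating receptor of NK cells, barely separated the drugs. Mybl2 differed from obese ZDF rats by 1.02 in rosiglitazone rats and 0.88 in resveratrol rats, and Klrk1 by -1.07 and -0.90, so their differences between the drugs were 0.14 and -0.17 (adjusted p of 0.885 and 0.872). Ifgga2l1, of an interferon-inducible GTPase family, was at -1.06 and -0.68, Rrm2 at 1.27 and 0.42, and Chst7 at 1.06 and 0.08. A gene that passed against obese ZDF rats in rosiglitazone rats only is not thereby shown to differ between the drugs, and of these 14 genes 3 did by the test between them.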

How the data were processed

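The authors hybridised 100 ng of whole blood RNA per rat to Affymetrix Rat Gene 2.1 ST arrays and deposited log2 values made by robust multi-array averaging (RMA), which corrects background, aligns the arrays and summarises the probes of a transcript cluster. No RMA version was stated. RMA shrinks differences of dim and of very bright probes. Array number, not read depth, limits the precision. Of 36685 clusters, those with a single gene symbol (14824) were used, while 829 with several and 21032 unnamed ones were left out. Entrez identifiers matched 14670 of them in RefSeq (GRCr8). The brightest cluster stood for each of 14557 genes, and 8499 had a mean over the 20 arrays of at least 2.64, the median of all clusters.

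The log2 values were fitted as deposited in limma 3.58.1 (R 4.3.3) with 4 group means over 20 arrays, 5 rats each (16 residual degrees of freedom), and two-sided p values were adjusted by Benjamini-Hochberg over 8499 genes, with a threshold of 0.05. The labels call the samples biological replicates. Named genes were the 10 with the smallest p in each direction where fewer than 5 passed, leaving out locus numbers, predicted family names and olfactory or vomeronasal receptors, up to 3 members with the smallest p of each list with a member at an unadjusted p under 0.05, and 16 drug target genes, of which 10 were tested, 4 were under the filter and 2 had no cluster of their own. Members and lists were chosen with earlier results of these data known. List counts are descriptions with no set test. The replicate numbers were checked and gave no sign of pairing the rats, which does not exclude it. Alternatives were other filters, scalings, priors, weights, covariates and array subsets. The main fit between the drugs, but none of the alternatives, was also run on simulated data with planted differences and genes drawn independently. It called 24% of the planted log2 differences of 0.5 and 92% of those of 1, so many smaller differences would be missed. These shares do not carry over to the real comparison. The simulation held 50 changed genes at each of 0.5, 1, 1.5 and 2, and so many changes make the adjusted threshold easier to pass. In the real data 4 of the 17 genes with a difference of 1 or more passed, so larger differences may be missed too. Figures were drawn with matplotlib. Sex and age effects, liver and muscle arrays were not analysed here.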

Additional observations from a re-analysis of the deposited data

Results flagged for a closer look

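Among the 226 sets of 5 values checked (named genes and list means in either drug group), 19 had a rat far from the other 4, with a gap over 0.71 of the group's range (Dixon's 95% value for 5). Chance gives about 1 in 20, so a part of these is to be looked for without any cause, and no cause was tested.

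In rosiglitazone rats, replicate 5 was the low rat for Snrpgl2 (4.84, the others 5.72 to 6.00), Selenbp1 (7.54), Slc25a20 (4.99), Rab27b (5.73) and the mean of the NK and cytotoxic list (4.08, the others 4.65 to 4.72). Replicate 1 was high for Rpl37a (4.22), replicate 3 low for Hbb-b1 (11.11) and replicate 4 low for Tlr2 (2.63). Snrpgl2 was called in all 20 fits that left out 1 array. The fit without replicate 5 is no check of that call, since dropping the lowest rat of the higher group can only widen the difference.

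In resveratrol rats, replicate 1 was the high rat for Vpreb1a (6.31, the others 3.05 to 3.59) and Krt86 (3.96), and the low rat for Rrm2 (2.98), Nfe2l2 (4.97), and the means of the monocyte (4.42), MHC class II (4.65) and liver lists (3.6). Replicate 5 was low for Ech1 (5.22), replicate 4 high for Tnfrsf13c (5.15), replicate 2 high for Ubash3a (4.14) and replicate 3 high for the mean of the sirtuin, AMPK and NAD list (5.09). In all, 12 of the 19 values came from rosiglitazone replicate 5 and resveratrol replicate 1, the arrays that stand apart from their groups.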

How the results depend on the processing

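The number of genes passing between rosiglitazone and resveratrol was 2 higher and 2 lower, and 2 and 2 with no filter. The higher count was 6 with the 75th percentile filter, 4 with quantile normalization, 8 with array weights, 8 with a trended robust prior, 11 at an adjusted p of 0.1, and 1 with either covariate (red cell list mean, or neutrophil minus T cell list mean). It ran from 1 to 9 when each array was left out in turn. The lower count was 1 with the 75th percentile filter and 5 with the trended robust prior, and ran from 2 to 4 with an array left out. Against obese ZDF rats, the count for rosiglitazone of 14 was 25 with the trended robust prior, 25 at an adjusted p of 0.1, 3 with the red cell covariate and 1 with the neutrophil minus T cell covariate, and ran from 3 to 26. For resveratrol it was 0, and 0 to 1 with an array left out. The cause of these shifts was not tested. With the replicate number as a block, 3 genes were higher and 2 lower. Same-numbered rats showed little common deviation (correlations from -0.152 to 0.213). This gives no sign that the numbers pair the rats, but it cannot exclude a pairing. Named genes kept their direction in the settings run, apart from Rxra, whose difference was 0.094 with array weights, 0.007 without rosiglitazone replicate 4 (lowest -0.426, without rosiglitazone replicate 3) and 0.086 without both arrays that stand apart, Ahr, at 0.009 without rosiglitazone replicate 4 (lowest -0.274, without resveratrol replicate 1), and Plin2, at -0.025 with the neutrophil minus T cell covariate and -0.078 without both arrays. Snrpgl2 and H2ac12 passed in all 32 settings and Prok2 in 28. The covariates, the fits without both arrays and those against obese ZDF rats were in part added after seeing the data.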

Other observations

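Some genes outside the lists and the rule for named genes differed by 1 or more on the log2 scale without passing the test, and they were picked after their values were seen. Serpinb1a, an inhibitor of neutrophil proteases, averaged 4.94 in rosiglitazone rats and 3.51 in resveratrol rats, a difference of 1.43 (adjusted p = 0.365 by limma). Cxcl16, a chemokine and scavenger receptor of myeloid cells, averaged 4.98 in rosiglitazone rats and 3.82 in resveratrol rats (adjusted p = 0.299). Efnb2, an ephrin ligand of vessels, averaged 4.53 in rosiglitazone rats and 3.37 in resveratrol rats, and Pclaf, which binds the replication clamp PCNA, 4.63 in rosiglitazone rats and 3.52 in resveratrol rats (adjusted p of 0.158 and 0.188). Cxcl16 and Efnb2 passed without rosiglitazone replicate 4.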
